A study of Mus musculus with 2 samples.

Results

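The genes described here are Ly6a, Clu, Areg, Ereg, Il33, Sprr1a and Msln, 7 of the 32285 genes counted, which were chosen by name as genes known to be switched on in the gut epithelium after injury. They were followed in 2 single-cell RNA-seq libraries of intestinal epithelial cells, 1 for wild type (WT) and 1 for MG53-TG mice. MG53, also named TRIM72 and encoded by Trim72, is a membrane repair protein of muscle, and MG53-TG mice overexpress it throughout the body, so the transgene was not limited to the epithelium. Both groups had received 2.5% dextran sulfate sodium (DSS), a salt in the drinking water that wounds the gut lining, and both were taken on day 7. The library labels state neither the age of the mice nor how many mice each library held, the study names a group size of several for this experiment without saying how these were divided over libraries, and neither library was untreated, so the level of these genes without DSS was not measured here. The cells came from crypts, and sorting kept those that carried EpCAM, an epithelial surface protein, and excluded 7-AAD, a dye that enters dead cells.

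After damage by DSS, infection or radiation, part of the intestinal epithelium is known to leave its normal programme and to take up a transient state that resembles the fetal gut. Ly6a (also called Sca-1) and Clu are widely used to mark this state, and the transcriptional regulator YAP, which acts with TEAD factors and is restrained by the Hippo kinases, is known to be needed for it. Areg and Ereg encode ligands of the EGF receptor, through which damaged epithelium renews itself. Il33 encodes an alarmin, a cytokine kept in the nucleus and set free by injured cells. Sprr1a encodes a small proline-rich protein of barrier epithelia, and Msln encodes mesothelin, a surface protein better known from mesothelium.

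Expression was counted as unique molecular identifiers (UMIs), 1 for each captured RNA molecule, and levels are given in CPM, the UMIs of a gene scaled to 1000000 UMIs of the cells named. A log2 ratio is that of MG53-TG over WT. With 1 library per genotype replicates were lacking, no test between genotypes was possible, and all intervals are exact 95% intervals that cover counting error only. A gene was counted as higher or lower when it had at least 30 UMIs in both libraries together and its CPM differed by 1.5-fold or more. The kit reads the 3′ ends of transcripts, and CPM is not a measure per transcript length, so levels were compared between cells and libraries but not between genes.

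Barcodes had to hold 1354 or more UMIs and 200 or more genes, with no more than 25% of UMIs from mitochondrial genes. This left 7401 in WT and 5153 in MG53-TG, of which 6963 and 4941 were kept after likely doublets had been taken out. The mitochondrial limit had excluded 33.7% of the WT and 46.1% of the MG53-TG barcodes that passed the other minimums. Of the 28 clusters, 23 were epithelial, with 6119 WT and 4606 MG53-TG cells and median depths of 15666 and 18654.5 UMIs. The 6 pan-epithelial markers summed to 6378 and 6418 CPM there. The 11 T cell markers summed to 35.4 and 20.6 CPM, the 6 B cell markers to 6.85 and 4.13 CPM and the 8 myeloid markers to 11.2 and 9.36 CPM, and S100a8 and S100a9 were at 0 in both. Of 6 stromal markers 1 was detected in WT and 2 in MG53-TG, and of 4 endothelial markers 1 and 2. Trim72 UMIs numbered 63 in the WT epithelium against 4569 in that of MG53-TG, or 0.594 against 50.8 CPM with a log2 ratio of 6.42, so the transgene followed the labels.

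Promoter sequence from RefSeq (build GRCm38.p6) was at hand for 3 of the 7 genes, namely Areg, Il33 and Sprr1a. Each window held 300 bases around a start of transcription, and Il33 had 2 windows. The 250 bases upstream of the start are shown for Sprr1a (chr3:92485882-92486131, minus strand) and Areg (chr5:91139349-91139598, plus strand), the genes among these 3 that were higher in MG53-TG in the epithelial sum or in enterocyte-like cells. Capitals mark matches to the AP-1 motif TGANTCA, the site of Jun and Fos proteins.
Sprr1a: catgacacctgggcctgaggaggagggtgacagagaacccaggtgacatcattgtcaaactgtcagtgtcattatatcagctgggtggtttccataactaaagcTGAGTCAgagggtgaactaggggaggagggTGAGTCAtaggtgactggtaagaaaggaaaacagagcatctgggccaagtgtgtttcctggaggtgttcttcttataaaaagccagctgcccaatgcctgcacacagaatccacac
Areg: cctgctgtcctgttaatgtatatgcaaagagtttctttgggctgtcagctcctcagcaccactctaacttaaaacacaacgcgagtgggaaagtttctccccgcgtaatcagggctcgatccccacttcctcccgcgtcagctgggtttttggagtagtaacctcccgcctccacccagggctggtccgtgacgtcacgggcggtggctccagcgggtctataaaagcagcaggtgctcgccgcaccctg
The Sprr1a window held 2 matches, and such a match was found in 7.81% of the 32851 RefSeq windows of this length. The TEAD motif GGAATG, searched on both strands and present in 14.7% of all windows, was found in both Il33 windows (1 match each) and in neither Areg nor Sprr1a. The GAS motif TTCNNNGAA, a site of STAT factors present in 8.30% of windows, was found in none of the 4 windows. AP-1 and GAS motifs read the same on both strands, and these matches describe letters in a window, not binding.

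In the summed epithelial cells, Clu was lower in MG53-TG and Sprr1a was higher, whereas Ly6a, the gene of the group with most UMIs, was level between the libraries. The minimum of 30 UMIs was passed by 6 of the 7 genes, and of these 1 was higher and 1 was lower by 1.5-fold or more. Among all 14656 genes that passed, 6.80% were higher and 3.0% were lower. The split of those calls depended on scaling, with 997 higher and 439 lower genes by CPM against 704 and 577 by the median of ratios. Both calls are to be read against that background and rest on low counts.

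Clu (ENSMUSG00000022037, chromosome 14, 65968483 to 65981547, plus strand), which encodes clusterin, a secreted chaperone that marks rare stem cells of the injured crypt, had 136 UMIs in WT against 36 in MG53-TG. This was 1.28 CPM (interval 1.08 to 1.52) and 0.40 CPM (interval 0.280 to 0.554), for a log2 ratio of -1.68 (interval -2.25 to -1.14). The intervals of the levels did not overlap. Clu was lower in MG53-TG under all 12 alternatives, with log2 ratios from -2.51 to -0.77, although the 2 that changed only the clustering left 6119 and 6120 epithelial cells in WT and 4606 in MG53-TG, and so could hardly move the sum.

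Sprr1a (ENSMUSG00000050359, chromosome 3, 92483952 to 92485895, minus strand) had 55 UMIs in WT against 88 in MG53-TG, 0.519 CPM (interval 0.391 to 0.675) and 0.978 CPM (interval 0.785 to 1.21). Its log2 ratio came to 0.92 (interval 0.41 to 1.43). It ranged from 0.72 to 1.82 over the 12 alternatives. These UMIs lay in only 18 WT and 28 MG53-TG cells.

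Areg (ENSMUSG00000029378, chromosome 5, 91139599 to 91148432, plus strand) encodes amphiregulin and had 215 and 236 UMIs, 2.03 CPM (interval 1.77 to 2.32) in WT against 2.62 CPM (interval 2.30 to 2.98) in MG53-TG. Its log2 ratio of 0.37 (interval 0.10 to 0.65) was under the fold used. Ereg (ENSMUSG00000029377, chromosome 5, 91074622 to 91093646, plus strand), its neighbour on the chromosome, encodes epiregulin and had 118 and 144 UMIs, 1.11 CPM (interval 0.921 to 1.33) and 1.60 CPM (interval 1.35 to 1.88), for a log2 ratio of 0.52 (interval 0.16 to 0.89). Neither ratio was stable. With a mitochondrial limit of 10% they were -0.039 and 0.055, and with each cell type weighted equally -0.15 and 0.076. The mean of single-cell CPM, in which shallow cells count as much as deep ones, gave 0.046 for Areg and -0.31 for Ereg.

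Il33 (ENSMUSG00000024810, chromosome 19, 29925114 to 29960718, plus strand) gave 250 UMIs in WT and 252 in MG53-TG, 2.36 CPM (interval 2.07 to 2.67) and 2.80 CPM (interval 2.47 to 3.17). The log2 ratio of 0.25 had an interval from -0.01 to 0.51, so a difference was not detectable at this depth. Ly6a (ENSMUSG00000075602, chromosome 15, 74994877 to 74998031, minus strand), a small surface protein tied to the membrane by a lipid anchor, had 884 and 746 UMIs, 8.34 CPM (interval 7.80 to 8.90) and 8.29 CPM (interval 7.71 to 8.91), for a log2 ratio of -0.01 (interval -0.15 to 0.14). The alternatives left it between -0.17 and 0.12. Reads from near-identical Ly6 genes may have been counted together or dropped, so its level is uncertain.

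Msln (ENSMUSG00000063011, chromosome 17, 25748613 to 25754378, minus strand) was close to undetected. It had 2 UMIs in 1 WT cell of a cluster led by Gsdmc4 and 0 UMIs in 4606 MG53-TG epithelial cells. The exact interval of a count of 0 there reaches up to 0.041 CPM. No ratio is given for it.

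**Figure D1:**
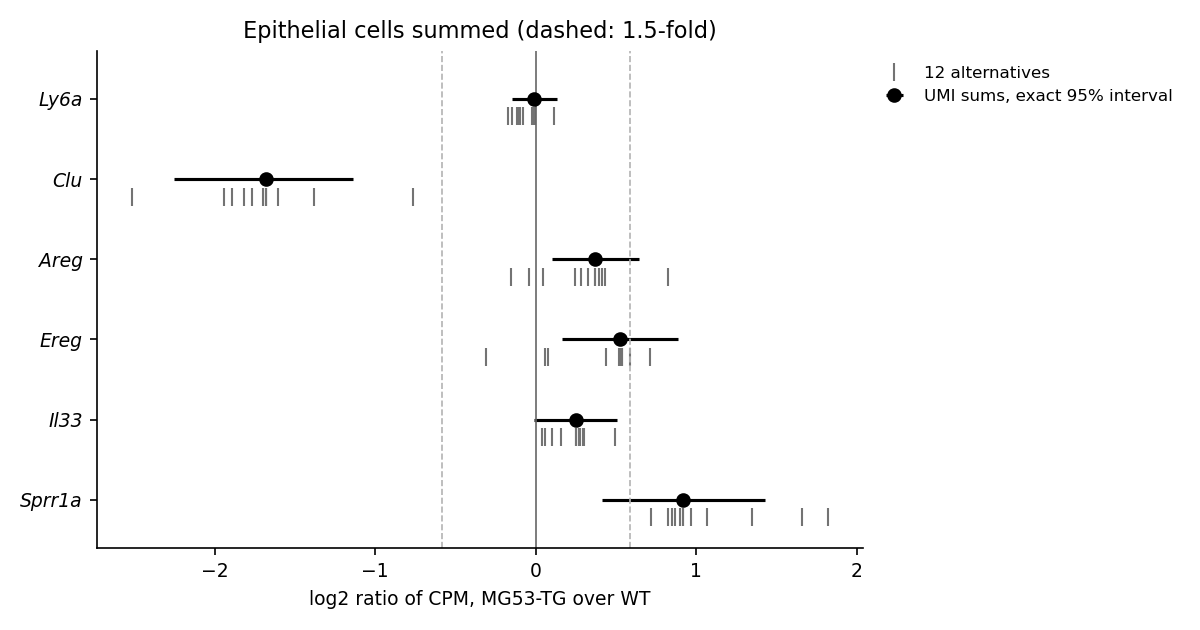
Log2 ratio of CPM, MG53-TG over WT (x axis), of 6 genes in the summed epithelial cells. Points with bars are UMI sums with exact 95% intervals, grey ticks are the 12 alternatives, and dashed lines mark 1.5-fold; the ticks of Clu all lie below 0 and those of Sprr1a all above, while those of Areg and Ereg fall on both sides.

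The plot of epithelial ratios sets the counting error of each gene beside the effect of the processing. For Ly6a and Il33 the ticks of the alternatives lay close to the interval of the UMI sums, and those of Il33 ran from 0.04 to 0.50. For Areg the ticks ran from -0.15 to 0.83, well beyond its interval.

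Few cells held any of these transcripts. At least 1 UMI of Ly6a was found in 425 WT epithelial cells, or 6.95% (interval 6.32 to 7.61), and in 331 of MG53-TG, or 7.19% (interval 6.46 to 7.97). Areg was found in 1.98% and 3.21%, Ereg in 1.47% and 2.37%, Il33 in 2.73% and 3.78%, Clu in 1.23% and 0.564% and Sprr1a in 0.294% and 0.608%. MG53-TG cells were deeper. Thinned to 1354 UMIs per cell, with no cell left out, the shares were 1.07% and 1.05% for Ly6a, 0.494% and 0.511% for Areg, 0.299% and 0.257% for Ereg, 0.415% and 0.439% for Il33, 0.384% and 0.082% for Clu and 0.099% and 0.263% for Sprr1a. The thinned shares of Areg, Ereg, Il33 and Ly6a were near each other in the 2 libraries, and that of Ereg went against its CPM, so no order is read from it.

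Where a gene was present, its UMIs were unevenly held. The 1% of WT epithelial cells with most UMIs of a gene held 47.1% of the Ly6a, 72.1% of the Areg and 57.6% of the Il33 UMIs, and in MG53-TG 49.6%, 56.8% and 47.6%. The most Ly6a UMIs in 1 cell were 21 in WT and 49 in MG53-TG. Sprr1a was the most uneven, with up to 20 UMIs in a WT cell, and its top 5 cells held 65.5% of its UMIs in WT and 53.4% in MG53-TG. No cell had 5 or more Ereg UMIs in either library.

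Free RNA sets a floor under these values. In 1434027 WT droplets of under 100 UMIs (5978198 UMIs), Ly6a stood at 24.8 CPM, Areg and Il33 at 4.35 CPM each, Clu at 1.34 CPM and Ereg and Sprr1a at 0.502 CPM each. The MG53-TG table held no droplets of this kind. Only part of a cell's UMIs come from free RNA, and T cell-like cells, which were sorted and captured beside the epithelium, had Ly6a UMIs in 2 of 640 WT cells (0.997 CPM, median depth 2860 UMIs) and in 0 of 251 MG53-TG cells (median depth 3580 UMIs). Areg and Il33 each had 1 UMI in these cells of each library, and Clu, Ereg and Sprr1a had none. Paneth-like cells had a similar Ly6a level (1.11 and 0.457 CPM) but were far deeper, with a median of 34651 UMIs in WT. There Ly6a was found in 4.18% of WT Paneth-like cells, against 0.31% of WT T cell-like cells. Whether the Paneth-like level was background was not tested.

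Across cell types the genes fell into different places. Clusters are called by type where at least 3 markers of that type marked them. Ereg and Il33 lay mainly in absorptive cells, Areg in absorptive and goblet-like cells (36.3% of its WT and 31.8% of its MG53-TG epithelial UMIs were in goblet-like cells), Ly6a was highest in ileal enterocyte-like and enteroendocrine-like cells, and Sprr1a was held by goblet-like and ileal enterocyte-like cells. Clu was found in several types. In WT, clusters 6, 4 and 24 held 26.5%, 15.4% and 13.2% of its epithelial UMIs. They held 2.89%, 1.06% and 0.206% of all WT epithelial UMIs, and their cells were shallow. Stem-like cells had little of these genes in WT, where they held 9 of 136 epithelial Clu UMIs and 56 of 884 of Ly6a. In MG53-TG they held 25 of 746 epithelial Ly6a UMIs but 11 of 36 of Clu, up to 5 of the latter in 1 cell. Clu stood at 0.386 CPM in WT stem-like cells against 1.28 CPM in the WT epithelium, and at 0.783 against 0.40 CPM in MG53-TG. Of the stem-like cells, 577 of 978 in WT and 295 of 483 in MG53-TG were in cluster 14, a cycling cluster with 8 stem cell markers whose top genes, such as Hist1h1b and Nusap1, were those of cell division, and the others were in cluster 15, led by Olfm4.

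**Figure D2:**
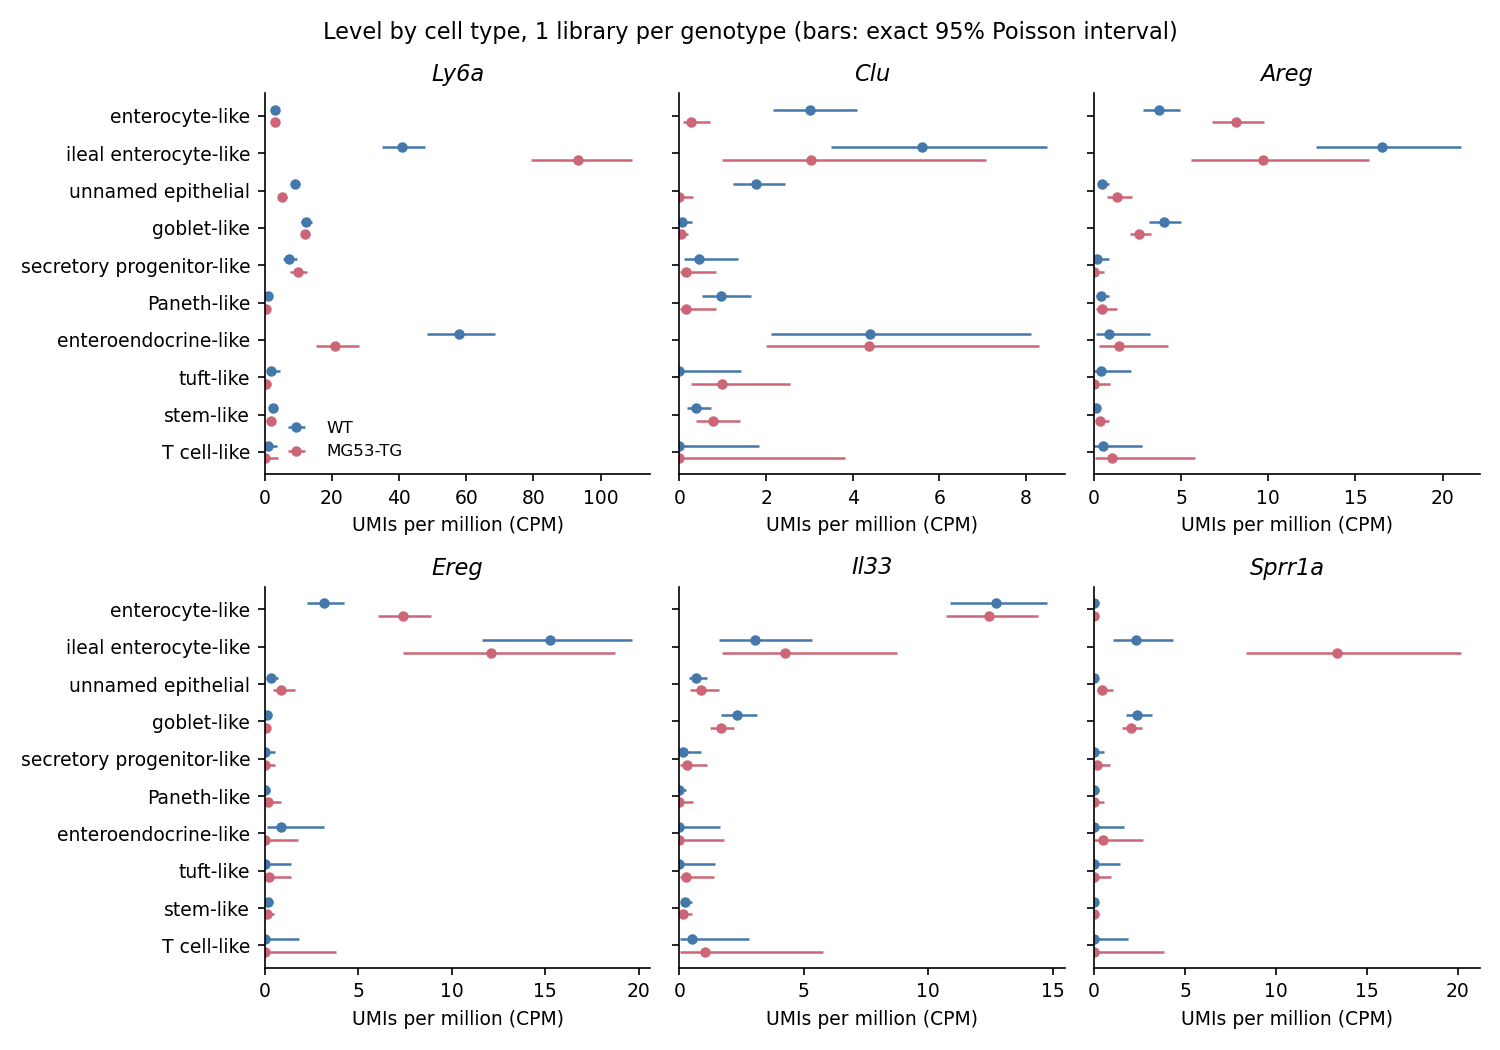
Level of 6 genes in CPM (x axis, a separate scale for each gene) by cell type (y axis) in WT and MG53-TG, with exact 95% Poisson intervals. Ereg stands out in enterocyte-like and ileal enterocyte-like cells, Areg in these and in goblet-like cells, Il33 in enterocyte-like cells, Ly6a in ileal enterocyte-like and enteroendocrine-like cells, and Sprr1a in 2 types.

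The plot of levels by cell type gives each of these values with its interval. Enterocyte-like cells, marked by genes of lipid uptake such as Apoa4 and Fabp1, numbered 949 in WT and 771 in MG53-TG. The minimum was passed by 5 of the 7 genes there, of which 2 were higher and 1 was lower, while 3.69% of all genes tested in these cells were higher and 3.36% lower.

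In enterocyte-like cells both EGF receptor ligands were higher in MG53-TG. Areg had 51 UMIs in 32 WT cells and 119 UMIs in 80 MG53-TG cells, 3.75 CPM (interval 2.79 to 4.93) and 8.14 CPM (interval 6.75 to 9.74), for a log2 ratio of 1.12 (interval 0.63 to 1.62). Ereg had 43 UMIs in 34 WT cells and 108 UMIs in 79 MG53-TG cells, 3.16 CPM (interval 2.29 to 4.26) and 7.39 CPM (interval 6.06 to 8.92), for a log2 ratio of 1.23 (interval 0.70 to 1.77). For neither gene did the intervals of the libraries overlap. Within these cells a mitochondrial limit of 10% gave 0.80 for Areg and 1.24 for Ereg, and the mean of single-cell CPM gave 0.85 and 0.97, alternatives chosen after the data had been seen. The same settings had brought the ratio of Areg in the epithelial sum to near 0.

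The enterocyte-like cells fell into 3 clusters, and the Areg ratio was above 0 in each. Cluster 5, led by Sult6b2, S100g and Reg1, had 22 and 48 Areg UMIs (2.72 and 5.88 CPM) and 13 and 45 Ereg UMIs (1.61 and 5.51 CPM). Cluster 6, led by Plb1, Enpp7 and Fam151a and shallower than the other clusters, had 23 and 45 Areg UMIs (7.52 and 12.2 CPM, ratio of 0.69 on the log2 scale, interval -0.06 to 1.49) and 27 and 52 Ereg UMIs (8.82 and 14.0 CPM, ratio of 0.67 on the log2 scale, interval -0.03 to 1.40). In cluster 20, led by Leap2 and the detoxifying enzymes Cyp2b10 and Cyp3a11, Areg had 6 and 26 UMIs (2.44 and 9.48 CPM) and Ereg had 3 and 11 UMIs.

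Il33 was level between the libraries in these cells. It had 173 UMIs in 111 WT cells and 182 UMIs in 117 MG53-TG cells, 12.7 CPM (interval 10.9 to 14.8) and 12.5 CPM (interval 10.7 to 14.4), and enterocyte-like cells held 69.2% of its epithelial UMIs in WT and 72.2% in MG53-TG. Its log2 ratio came to -0.03 (interval -0.34 to 0.28). Cluster 20 had the highest Il33 level of the enterocyte-like clusters, at 28.1 CPM in WT against 24.4 CPM in MG53-TG, against 13.7 and 14.3 CPM in cluster 6 and 7.67 and 7.59 CPM in cluster 5. Paneth-like and enteroendocrine-like cells had no Il33 UMI in either library, with an exact interval up to 0.274 CPM in 335 WT Paneth-like cells.

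Clu went the other way in the same cells. It had 41 UMIs in 22 WT cells and 4 UMIs in 4 MG53-TG cells, 3.01 CPM (interval 2.16 to 4.09) and 0.274 CPM (interval 0.075 to 0.701), for a log2 ratio of -3.46 (interval -5.40 to -2.0). Of these UMIs, 36 in WT and all 4 in MG53-TG were in cluster 6 (11.8 and 1.08 CPM). Without the 1 cell of each library that had most Clu UMIs, the log2 ratio was -3.61.

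Ileal enterocyte-like cells, which carry Fabp6 and Slc10a2 of bile acid uptake, numbered 425 in WT and 154 in MG53-TG. The minimum was passed by 4 of the 7 genes, of which 2 were higher and 1 was lower, where 6.60% of all genes tested were higher and 7.38% lower. The type had 2 clusters that differed in depth and in these genes. Cluster 2, led by Fabp6, Mgat4c and Gsdmc4, had deep cells, and cluster 4, led by Saa1, Slc10a2 and Slc6a14, had shallow ones.

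Ly6a was concentrated in cluster 2. There it had 157 UMIs in 52 of 164 WT cells and 149 UMIs in 14 of 55 MG53-TG cells, 55.9 and 132 CPM, for a log2 ratio of 1.24 (interval 0.91 to 1.57). The higher level in MG53-TG came from few cells, since 1 of the 14 cells held 49 of the 149 UMIs. Over all ileal enterocyte-like cells the levels were 41.0 CPM (interval 34.9 to 47.8) and 93.4 CPM (interval 79.2 to 109), for a log2 ratio of 1.19 (interval 0.86 to 1.52), which was 0.83 without the top cell of each library and 0.26 when clusters were drawn at a finer resolution. The thinned share of Ly6a-positive cells in cluster 2 was 6.13% in WT and 9.21% in MG53-TG.

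In cluster 4 both EGF receptor ligands were lower in MG53-TG. Areg had 36 UMIs in 20 of 261 WT cells and 5 UMIs in 5 of 99 MG53-TG cells (32.1 and 9.60 CPM, ratio of -1.74 on the log2 scale, interval -3.45 to -0.39). Ereg had 36 UMIs in 26 WT cells and 4 UMIs in 4 MG53-TG cells (32.1 and 7.68 CPM, ratio of -2.06 on the log2 scale, interval -4.01 to -0.58). In cluster 2 Areg had 29 and 11 UMIs (10.3 and 9.75 CPM) and Ereg had 24 and 16 UMIs (8.55 and 14.2 CPM), with the intervals of both ratios on both sides of 0. Over the whole type Areg stood at 16.5 and 9.70 CPM, for a log2 ratio of -0.77 (interval -1.66 to 0.04) that became 0.054 at the finer resolution. Ereg stood at 15.3 and 12.1 CPM, for a log2 ratio of -0.33 (interval -1.14 to 0.42), or 0.19 at the finer resolution. Other alternatives, chosen after the data had been seen, went the other way. A mitochondrial limit of 10% gave -1.55 for Areg and -0.92 for Ereg. The mean of single-cell CPM gave -1.54 and -0.83.

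Sprr1a in ileal enterocyte-like cells had 9 UMIs in 5 WT cells and 22 UMIs in 7 MG53-TG cells, 2.29 CPM (interval 1.05 to 4.35) and 13.3 CPM (interval 8.36 to 20.2). Its log2 ratio came to 2.54 (interval 1.37 to 3.85), and 2.26 without the top cell of each library, 1.87 at the finer resolution and 3.17 at a coarser one. All 22 MG53-TG UMIs were in cluster 4. Clu had 22 and 5 UMIs in the type, 5.60 and 3.03 CPM, with intervals that overlapped. Of these UMIs, 21 in WT and 4 in MG53-TG were in cluster 4.

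Goblet-like cells, which secrete mucus, were 1383 in WT and 1660 in MG53-TG, and 1 of their clusters held most of the Areg, Il33 and Sprr1a of the type. This was cluster 7, with 310 WT and 268 MG53-TG cells, led by Ido1, Frmd3 and Ptgdr, with Cldn4 and S100a6 among its top genes. Areg had 70 of the type's 78 UMIs there in WT and 61 of 75 in MG53-TG, and its level was close in both (25.9 and 25.5 CPM, ratio of -0.02 on the log2 scale, interval -0.54 to 0.49). The log2 ratio of -0.63 (interval -1.11 to -0.16) over all goblet-like cells therefore went with a smaller part of MG53-TG goblet-like cells in cluster 7.

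Il33 in cluster 7 had 37 and 40 UMIs (13.7 and 16.7 CPM, ratio of 0.29 on the log2 scale, interval -0.40 to 0.97). Sprr1a had 40 UMIs in 11 WT cells and 58 UMIs in 14 MG53-TG cells of cluster 7, 14.8 and 24.2 CPM, for a log2 ratio of 0.71 (interval 0.10 to 1.33). These were 72.7% and 65.9% of the epithelial Sprr1a UMIs in clusters of 5.07% and 5.82% of the cells. Over all goblet-like cells Sprr1a had 2.37 and 2.03 CPM, for a log2 ratio of -0.22 (interval -0.80 to 0.37). Its sign turned on 1 cell, since 1 WT cell held 20 of the 46 WT UMIs and the ratio was 0.24 without the top cell of each library. Ly6a was spread over the goblet-like clusters, at 12.4 CPM in WT against 12.1 CPM in MG53-TG, and Clu had 1 UMI in each library. Cluster 12, with 112 WT and 80 MG53-TG cells, was counted as goblet-like by its markers although it was led by Tmprss15 and Slc5a12, genes better known from absorptive cells. Without it, an alternative chosen after the data had been seen, the goblet-like log2 ratios were -0.079 for Ly6a, -0.71 for Areg, -0.45 for Il33 and -0.23 for Sprr1a.

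Enteroendocrine-like cells, the hormone cells of the gut, had the highest Ly6a level of the WT epithelium, with 131 UMIs in 40 of 286 cells (57.7 CPM, interval 48.3 to 68.5). In MG53-TG they had 43 UMIs in 27 of 181 cells (20.9 CPM, interval 15.1 to 28.2), for a log2 ratio of -1.47 (interval -2.0 to -0.96). The difference lay in cluster 10, led by Afp, Tph1 and Chga, of which Tph1 makes serotonin, with 113 UMIs in 26 of 128 WT cells and 24 UMIs in 15 of 66 MG53-TG cells (145 and 41.7 CPM, ratio of -1.80 on the log2 scale, interval -2.50 to -1.16). In cluster 19, led by the peptide hormone genes Sst, Ghrl and Gip, Ly6a was at 12.1 and 12.8 CPM. Clu had 10 and 9 UMIs in the type, 4.41 and 4.38 CPM.

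The remaining epithelial cells held less. Ordered by WT level, Ly6a followed with 9.0 CPM in unnamed epithelial cells, 7.21 CPM in secretory progenitor-like cells, 2.94 CPM in enterocyte-like, 2.40 CPM in stem-like and 1.91 CPM in tuft-like cells, and the intervals of neighbours overlapped except between secretory progenitor-like (5.30 to 9.59) and enterocyte-like cells (2.10 to 4.0). In MG53-TG the corresponding levels were 5.15, 9.83, 3.01, 1.78 and 0.497 CPM. In the unnamed cluster 1, led by Gsdmc4, Gsdmc2 and Gsdmc3, Ly6a had 122 UMIs in WT against 25 in MG53-TG (11.7 and 5.18 CPM, ratio of -1.17 on the log2 scale, interval -1.85 to -0.54).

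Clu in the unnamed epithelial cells had 37 UMIs in 13 of 1123 WT cells and 0 UMIs in 517 MG53-TG cells. The exact interval of its log2 ratio had an upper limit of -2.39. The WT level was 6.76-fold above a floor of 3 counts over the MG53-TG cells, which is not an exact limit. Cluster 24, shallow and led by Ada, Clca4a and Slc28a2, held 18 of these UMIs in 10 of 56 WT cells (82.4 CPM) and none in 65 MG53-TG cells. Cluster 1 held 19 UMIs in WT and 0 in MG53-TG, up to 17 of them in 1 cell. Clu was not lower in MG53-TG in every type. Tuft-like cells had 0 UMIs in 231 WT cells and 4 UMIs in 285 MG53-TG cells (0.994 CPM, interval 0.271 to 2.55). Stem-like cells had 9 UMIs in 978 WT cells and 11 UMIs in 483 MG53-TG cells (0.386 and 0.783 CPM, ratio of 1.02 on the log2 scale, interval -0.39 to 2.47). The difference in stem-like cells was not detectable at this depth.

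**Figure D3:**
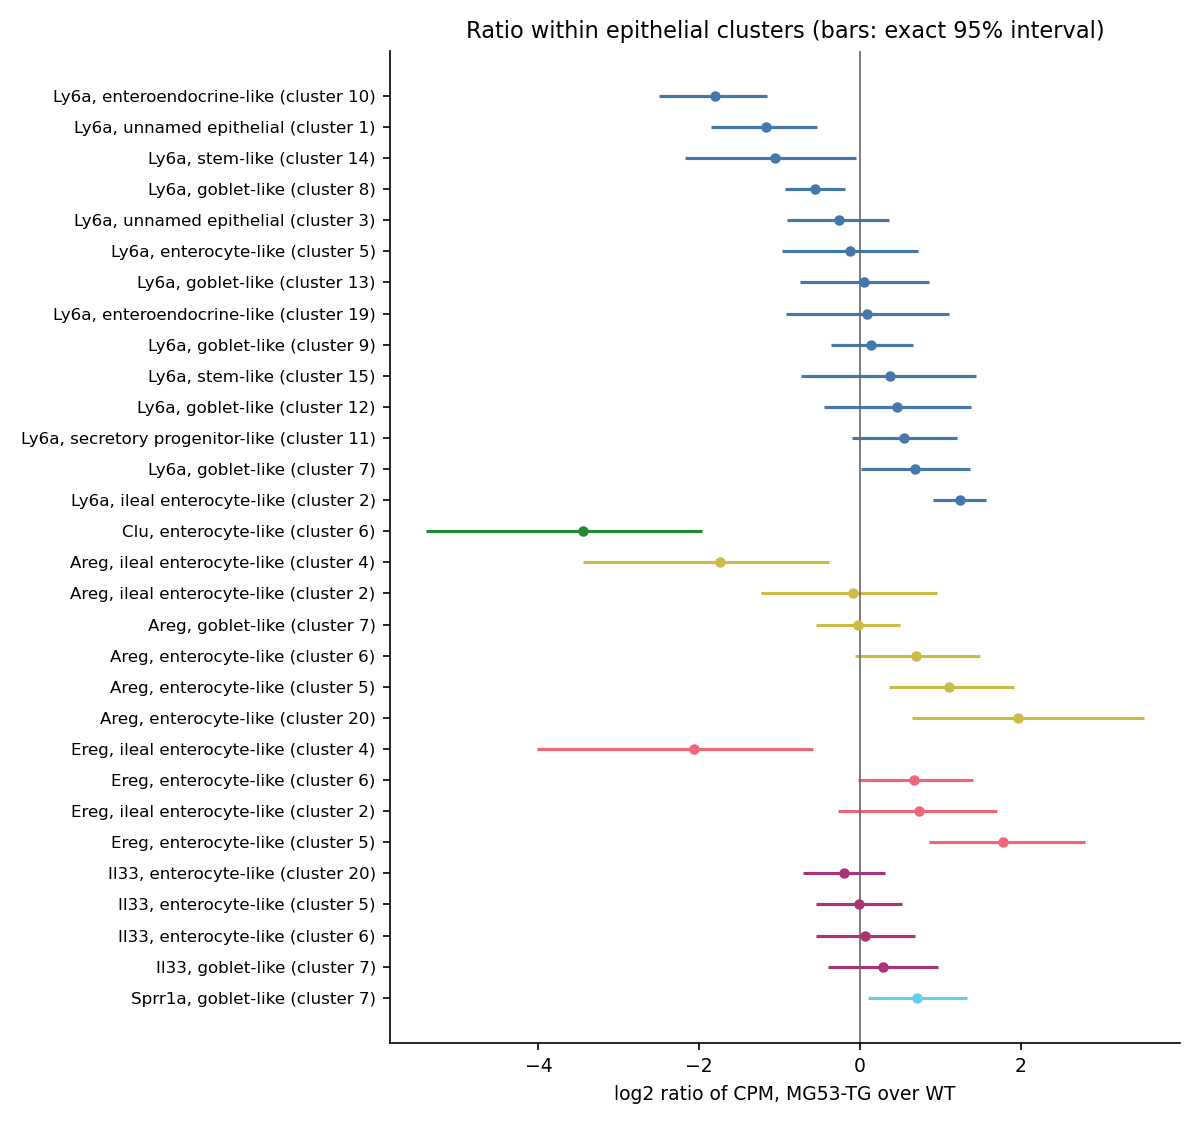
Log2 ratio of CPM, MG53-TG over WT (x axis), for each gene and epithelial cluster with 30 or more UMIs and a UMI in both libraries (30 pairs), with exact 95% intervals and clusters named by type. Ly6a and the EGF receptor ligands have clusters on both sides of 0, and the 4 Il33 intervals all span 0.

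In the plot of ratios by cluster, Ly6a, Areg and Ereg had clusters on both sides of 0, whereas Clu and Sprr1a had 1 cluster each. Of the 14 clusters plotted for Ly6a, cluster 2 lay farthest above 0 and cluster 10 farthest below, and in the epithelial sum they gave a ratio near 0. For Areg and Ereg, all plotted enterocyte-like clusters lay above 0 and ileal cluster 4 lay below. The other ileal cluster, cluster 2, had -0.084 for Areg (interval -1.23 to 0.96) and 0.73 for Ereg (interval -0.28 to 1.70). The difference between clusters was not tested.

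Outside the epithelium, Ly6a was the only gene of the group with a clear level. B cell-like cells had 34 UMIs in WT against 19 in MG53-TG (142 and 194 CPM). The 2 unnamed clusters with more Ptprc than Epcam UMIs had 108 and 77 UMIs (247 and 300 CPM), most of it in 9 WT and 6 MG53-TG cells led by Siglech and Ly6d (1670 and 973 CPM). These cells were not counted as epithelial. The part of free lymphocyte RNA in the epithelial Ly6a level was not tested.

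Joint detection shows which genes shared cells. UMIs of 2 or more of the 7 genes were found in 74 WT epithelial cells (1.21%) and 96 MG53-TG cells (2.08%). In enterocyte-like cells there were 21 (2.21%) and 57 (7.39%), with median depths of 20689 and 23640 UMIs against 12715 and 18968 UMIs in all cells of the type, so depth moved with this count.

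Without thinning, Areg and Ereg were found together in more cells than any other pair. Of the 148 MG53-TG epithelial cells with Areg, 30 also had Ereg (20.3%, against 1.77% of cells without Areg), and of the 121 WT cells 14 did (11.6%, against 1.27%). MG53-TG cells were deeper, and thinned to 1354 UMIs the expected numbers with both were 0.312 in MG53-TG and 1.14 in WT, so no order between the libraries is read from these counts. Other pairs had higher thinned numbers in MG53-TG, such as Areg and Sprr1a (1.62), Areg and Il33 (1.23) and Ly6a and Areg (1.12). No order between pairs is therefore read either. Within enterocyte-like cells Ereg was found in 30% of cells with Areg against 7.96% of the others in MG53-TG and in 15.6% against 3.16% in WT, and within ileal enterocyte-like cells in 38.5% against 8.51% and 27.6% against 8.84%. In MG53-TG 26 of the Areg-positive cells had Il33 (17.6%, against 3.32%), and in WT 7 had it (5.79%, against 2.67%). Within enterocyte-like cells the shares with Il33 were 17.5% against 14.9% in MG53-TG and 9.38% against 11.8% in WT, so the pooled difference was mostly not seen inside the type that held most Il33. In goblet-like cells they were 25% against 1.54% and 9.76% against 1.71%, where cluster 7 held most UMIs of both genes. Sprr1a was paired with Areg, in 9 of the 18 cells with Sprr1a in WT and 6 of the 28 in MG53-TG. Ly6a and Clu, the usual pair of injury markers, were found together in 6 WT cells, 8.0% of the 75 cells with Clu against 6.93% of cells without it, and in 3 MG53-TG cells, 11.5% of 26 against 7.16%.

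Of the cells with Sprr1a, 11 of 18 in WT and 14 of 28 in MG53-TG were in cluster 7, whose top genes include Cldn4 and S100a6, and the values of cells with Sprr1a are to be read with that in view. S100a6, a calcium-binding protein, was at 5176 CPM in the 18 WT cells with Sprr1a against 331 CPM in the rest of the epithelium, and at 3850 CPM in the 28 MG53-TG cells against 398 CPM. Cldn4, a claudin of tight junctions, was at 487 CPM against 11.9 CPM in WT and at 569 CPM against 13.8 CPM in MG53-TG. Gsn, an actin-severing protein, was at 241 against 42.0 CPM and at 208 against 39.5 CPM. Within cluster 7 the fold differences were smaller. S100a6 was at 7912 against 4131 CPM in WT and 6902 against 3864 CPM in MG53-TG, Cldn4 at 591 against 169 CPM and 740 against 160 CPM, and Gsn at 272 against 217 CPM and 329 against 184 CPM. Not all genes of the list were higher over the epithelium, with Anxa5 at 4.39 against 14.6 CPM and Cd44 at 4.39 against 11.8 CPM in WT. The cells with Sprr1a had median depths of 14093.5 UMIs in WT and 6409 UMIs in MG53-TG, against 15666 and 18688.5 UMIs in the others. These genes were chosen from the list after their values had been seen, and the list as a whole summed to 10409 CPM in WT cells with Sprr1a and 2058 CPM in those without (7348 and 2299 CPM in MG53-TG). Among goblet-like cells the list summed to 11765 against 3891 CPM in WT and 10084 against 3484 CPM in MG53-TG, and among ileal enterocyte-like cells to 7074 against 2768 CPM in WT (5 cells with Sprr1a) and 3126 against 2690 CPM in MG53-TG (7 cells). Goblet-like cells with Areg were also higher for the list, at 9249 against 3826 CPM in WT and 7167 against 3442 CPM in MG53-TG. So were those with Il33, at 5532 against 3928 CPM and 6628 against 3462 CPM. Cluster 7 held most goblet-like UMIs of both genes, so these values too are to be read with that cluster in view.

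The counts of the wider lists are to be read against the 6.80% of all genes that were higher and the 3.0% that were lower. Of the regenerative list, 22 of 29 genes in the table passed the minimum, of which 5 were higher in MG53-TG (Anxa3, Basp1, Crip2, Tm4sf4 and Krt23) and 1, F3, was lower. Goblet-like cells were 22.6% of the epithelium in WT and 36.0% in MG53-TG, Anxa3 was among the top genes of goblet-like cluster 8, and the part of cell type shares in the list calls was not tested. The median log2 ratio of the list, with a pseudocount of 1 CPM, was 0.18, against 0.07 over all genes tested. Tm4sf4, a tetraspanin-like membrane protein, had 229 and 404 CPM (log2 ratio 0.82), and the keratin Krt23 had 22.2 and 38.8 CPM (0.80). Among the abundant members, Anxa2 had 273 and 256 CPM, S100a6 had 342 and 407 CPM and S100a10 had 661 and 572 CPM.

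Of the YAP target list 16 of 23 genes passed, 5 of them higher (Myof, Nt5e, Ptpn14, Tgfb2 and Rbms3) and 1, again F3, lower, with a median of 0.22. Myof, a ferlin of membrane fusion, had 19.4 and 31.8 CPM, and F3, the tissue factor of blood clotting, had 3.34 and 2.06 CPM. Among the 15 Hippo components, all of which passed, only the transcription factor Tead2 was higher (1.25 and 2.12 CPM, log2 ratio 0.76), and none was lower, with a median of 0.17. Mob1a and Mob1b, cofactors of the Hippo kinases, had 40.4 and 44.5 CPM and 44.2 and 51.3 CPM.

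Of the EGF family 12 of 15 genes passed, and none differed by 1.5-fold in the epithelial sum, with a median of 0.03. The ligand Hbegf had 14.3 and 14.9 CPM and Btc 6.03 and 7.18 CPM, and the receptor gene Erbb3 had 106 CPM in both. Of the IL-33 axis 6 of 12 genes passed. Il25, the tuft cell cytokine, was higher (0.905 and 1.77 CPM, log2 ratio 0.97), as was Tslp (0.453 and 0.890 CPM, 0.97), both epithelial cytokines that act on the same innate lymphoid cells as Il33. Tuft-like cells, the known source of Il25, were 231 in WT (3.78% of epithelial cells) and 285 in MG53-TG (6.19%), and their part in the Il25 level was not tested. Il18 had 81.3 and 97.1 CPM.

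Of the Ly6 family 5 of 12 genes passed, of which Ly6g6c and Psca were higher on few UMIs (14 and 26, and 31 and 41). Lypd8, which keeps bacteria off the colonic surface, had 3882 and 4164 CPM. Of the Sprr family 3 of 11 passed, and Sprr2a3 was higher (10.1 and 17.4 CPM, log2 ratio 0.79), although its near-identical copies make that count uncertain. Of 12 stem cell genes Lgr5 (3.90 and 6.29 CPM, log2 ratio 0.69) and Tnfrsf19 (0.830 and 1.40 CPM) were higher, whereas Olfm4 had 334 and 332 CPM, with a median of 0.05.

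Interferon genes formed the list with most calls, 16 of 24 higher and none lower, with a median log2 ratio of 0.68 and a sum of 261 CPM in WT against 394 CPM in MG53-TG. Iigp1, a guanosine triphosphatase against intracellular microbes, had 0.415 and 2.07 CPM (log2 ratio 2.32), and Irf1 had 51.5 and 63.4 CPM. Over the whole epithelium the sum was higher in cells with a UMI than in cells without one for each of the 6 genes in both libraries, at 398 against 248 CPM in WT and 695 against 368 CPM in MG53-TG for Ly6a and at 605 against 260 CPM in WT for Sprr1a. Within types the order depended on the gene and the type. For Ly6a the sum was higher in cells with the gene in each of the 4 types examined and in both libraries, at 588 against 352 CPM in WT and 841 against 436 CPM in MG53-TG in goblet-like cells, 488 against 378 CPM and 868 against 525 CPM in enterocyte-like cells, 730 against 651 CPM and 1249 against 1148 CPM in ileal enterocyte-like cells and 293 against 255 CPM and 295 against 282 CPM in enteroendocrine-like cells. Clu had the same order in these types and both libraries, at 531 against 380 CPM and 731 against 542 CPM in enterocyte-like cells. Its values were 834 against 669 CPM and 1415 against 1159 CPM in ileal enterocyte-like cells. In enteroendocrine-like cells they were 407 against 255 CPM and 663 against 275 CPM. Goblet-like cells had 1 cell with Clu per library (474 against 378 CPM, 617 against 482 CPM), and the other types had 4 to 22. The sum was also higher for Areg in goblet-like cells (784 against 368 CPM, 614 against 479 CPM) and enterocyte-like cells (543 against 376 CPM, 648 against 527 CPM), for Ereg in enterocyte-like cells (486 against 377 CPM, 765 against 511 CPM) and for Sprr1a in goblet-like cells (598 against 376 CPM, 811 against 480 CPM). In ileal enterocyte-like cells the sum was lower in cells with the gene for Areg (657 against 673 CPM in WT, 654 against 1253 CPM in MG53-TG), for Ereg (557 against 690 CPM, 1019 against 1204 CPM) and for Il33 (455 against 684 CPM, 568 against 1231 CPM), and for Sprr1a it was 622 against 673 CPM in WT and 2065 against 1148 CPM in MG53-TG. For Il33 in enterocyte-like cells it was 379 against 383 CPM and 515 against 549 CPM. In goblet-like cells it was higher in cells with Il33, at 486 against 376 CPM in WT and 570 against 481 CPM in MG53-TG.

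**Figure D4:**
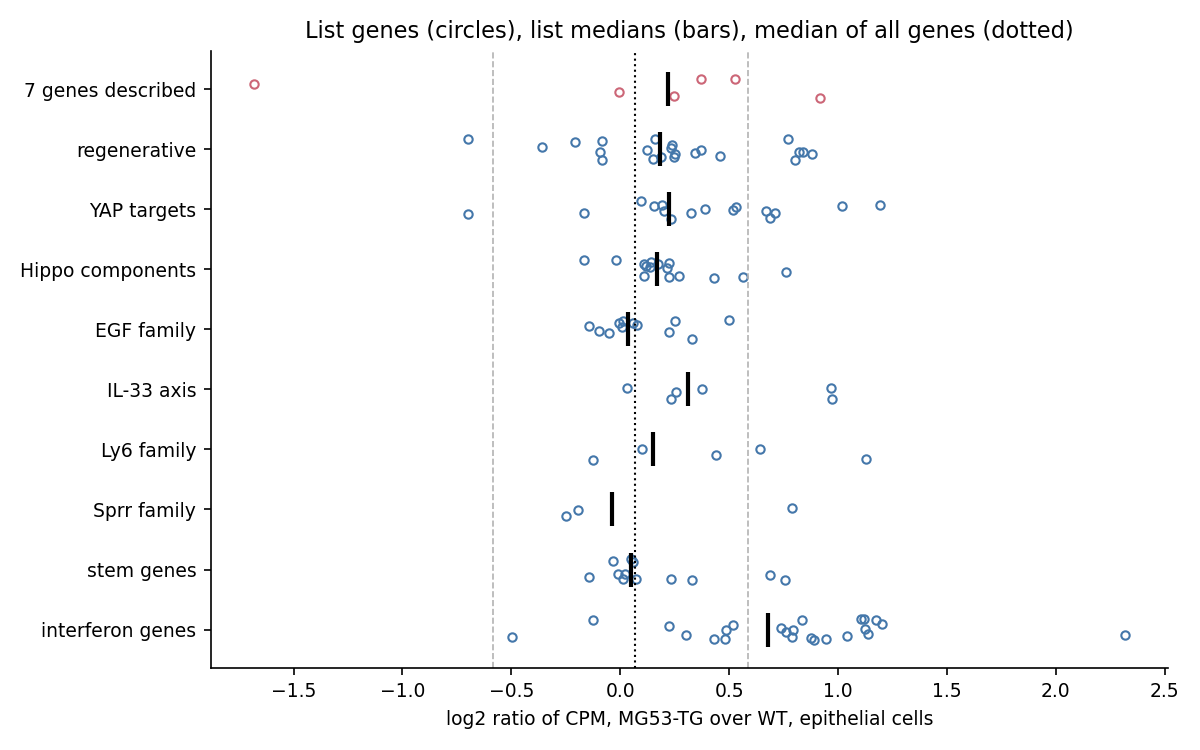
Log2 ratio of CPM, MG53-TG over WT, in epithelial cells (x axis) for list genes with 30 or more UMIs (circles), by list. Bars are list medians with a pseudocount of 1 CPM, the dotted line is the median of all genes tested and dashed lines mark 1.5-fold; the interferon list lies farthest right, and the 6 genes described with 30 UMIs spread from Clu to Sprr1a.

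In the plot of list genes most circles lay between the dashed lines, and the spread of the 6 genes was wider than that of the Hippo components and EGF family. Their median was 0.22, against 0.07 over all genes, and with a pseudocount of 5 CPM it was 0.098 against 0.035.

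For 4 genes with enough UMIs, the genes whose level over 9 cell types in both libraries (18 values) was most like theirs were sought among 10114 genes, as a description in which values share libraries and depth. For Ly6a these were Gsdme (Pearson r = 0.92), Jun (0.91) and Itprid2 (0.91). For Areg they were Cxcl16 (0.94), Rdh9 (0.93) and Sectm1b (0.92), and for Ereg they were Ubd, Ocm and Slc5a8 (0.98 each). For Il33 they were Slc35c2 (0.94), Gsta1 (0.94) and Slc5a11 (0.92). Among the genes themselves Areg and Ereg were most alike (0.87), followed by Areg and Il33 (0.80), while Ly6a and Il33 had 0.20.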

How the data were processed

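The authors deposited raw UMI counts for each gene in each barcode. Per the file headers, the WT counts came from Cell Ranger 4 and those of MG53-TG from Cell Ranger 6.0.1, and the submitters' processing notes name the mm10 build. Libraries were prepared with version 3 of the 3′ kit of 10x Genomics. WT had all 2005718 barcodes and MG53-TG had 12361, none under 500 UMIs, so that program version, barcode filtering and library coincided with genotype and cannot be told apart from it. Whether strand was used, and how reads mapping to several genes were treated, is not given in the sources used here.

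Barcodes were filtered as described above, and 8 barcode sequences occurred in both libraries. Total depth after the filter was 120432342 UMIs in WT and 98075562 in MG53-TG. Scrublet's automatic threshold in scanpy 1.11.5 marked under 0.5% of cells, so that the highest scores were removed at 0.8% per 1000 cells (438 WT and 212 MG53-TG cells). Cells were clustered together on log counts per 10000 UMIs with 2000 variable genes, 30 components, 15 neighbours and Leiden at resolution 1, leaving out the 7 genes, all list genes and Trim72. A cluster was called X-like from 3 or more markers, detected in 10% of its cells at 1.5 times the level elsewhere, and stayed unnamed when its top 10 genes held more markers of another type than of its own, its markers were weak, or it was shallow without its own markers among its top 10 genes. Unnamed clusters with more Ptprc than Epcam UMIs were set outside the epithelium after the clusters had been seen. The limits of 200 genes and 25% mitochondrial UMIs are those of the study, whereas the UMI minimum, software and names differ from it.

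Intervals were exact Poisson (UMI sums), Clopper-Pearson (shares) and conditional binomial (ratios). Only the ratio intervals and the thinning were tested on simulated data. The simulated counts were independent, whereas UMIs here were unevenly held by cells. Thinned shares are the exact expectation over draws of 1354 UMIs. From each list the text names up to 3 genes of highest WT level and up to 3 of largest log2 ratio, the latter with a pseudocount of 1 CPM, beside all genes called. The genes and lists were chosen with earlier results of these data known. F3, Ly6d, Lats2 and Lrig1 are each in 2 lists, and Trop2, Cyr61 and Ctgf are older names absent from the tables. Alternatives were other UMI, mitochondrial and doublet limits, scalings, clusterings and weights. No other processed columns were used.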

Additional observations from a re-analysis of the deposited data

Results flagged for a closer look

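For Ly6a and Areg, cell types differed in the direction of the difference between the libraries, and this difference between types was not tested. The log2 ratio of Ly6a was 1.19 in ileal enterocyte-like and -1.47 in enteroendocrine-like cells. The former was 0.26 at the finer resolution and 0.83 without the top cell of each library. That of Areg was 1.12 in enterocyte-like and -0.63 in goblet-like cells. Goblet-like cluster 7, which held most Areg UMIs of its type, was level between the libraries, as given above.

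UMIs of 4 of the genes lay in WT droplets of under 100 UMIs, which hold free RNA, above the 3 counts taken as a floor, with 148 UMIs of Ly6a, 26 of Areg, 26 of Il33 and 8 of Clu. MG53-TG had no such droplets to set beside them.

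The barcodes left out for over 25% mitochondrial UMIs, 3755 in WT and 4402 in MG53-TG, also held these transcripts. In WT and MG53-TG respectively, Areg stood at 3.92 and 9.57 CPM, Ereg at 1.45 and 2.27 CPM, Il33 at 7.08 and 8.98 CPM, Clu at 3.06 and 0.549 CPM, Ly6a at 1.77 and 0.667 CPM and Sprr1a at 0.376 and 0.784 CPM. Msln had 0 UMIs in both. Areg was thus higher and Clu lower in MG53-TG in these excluded barcodes too, and their cell types were not assigned here.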

How the results depend on the processing

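With 1 library per group no replicate could be left out, and no paired analysis was possible because the groups share 1 replicate number only. Over the 12 alternatives of the epithelial sum, Clu was below 0 and Sprr1a and Il33 were above 0 in all 12, and Ereg and Ly6a kept their sign in 11 and Areg in 10. A mitochondrial limit of 10% gave -0.039 for Areg and 0.055 for Ereg, and one of 50% gave 0.83 for Areg and -0.17 for Ly6a. The mean of single-cell CPM gave -2.51 for Clu, 0.046 for Areg, -0.31 for Ereg and 1.66 for Sprr1a. Equal weights for all types gave -0.77 for Clu, -0.15 for Areg, 0.076 for Ereg and 1.82 for Sprr1a. The cause of these shifts was not tested. Genes higher by 1.5-fold numbered 997, against 2180 with no minimum beyond 1 UMI in each library and 617 with a minimum of 100 UMIs, and genes lower numbered 439, against 1418 and 197. Within types, a resolution of 2.0 gave 1.87 for Ereg in enterocyte-like cells, and the mean of single-cell CPM, added after seeing the data, gave 0.79 for Sprr1a in goblet-like cells. With a pseudocount of 5 CPM the list medians were 0.098 for the genes described (0.22 with 1 CPM), 0.076 for YAP targets, 0.15 for the IL-33 axis, 0.043 for the Ly6 family and 0.38 for interferon genes, against 0.035 over all genes. Depth limits all values of Msln and most ratios by cluster.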
